A study of Mus musculus with 5 samples.

Results

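In the forelimb and hindlimb libraries, 471 of 49801 filtered cells held at least 1 UMI of *Col2a1*, the main collagen of cartilage, together with at least 1 UMI of *Ihh* or *Col10a1*, the genes that label prehypertrophic and hypertrophic chondrocytes. A UMI (unique molecular identifier) marks 1 captured RNA molecule, and CPM is UMIs per 1000000 UMIs of the cell or summed class. The forelimb gave 222 of these members among 25865 filtered cells, and the hindlimb gave 249 among 23936. The whole series held 77640 filtered cells from 84440 barcodes. Members were set against 2838 reference chondrocytes of the same libraries, which held *Col2a1* at 1000 CPM or more, a UMI of *Acan*, *Matn1*, *Matn3* or *Matn4*, and no *Ihh*, *Col10a1* or *Gdf5*. Both gates read measured values, so these 8 genes are described below and were never tested between members and reference cells.

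The series measured RNA in dissociated cells of mice, C57BL/6N by the labels and C57BL/6J by the study's methods, with no treatment and no engineered allele given for any group. The limb libraries, 1 of forelimb and 1 of hindlimb, were labelled embryonic day 15, and per the study's methods came from male embryos. The 3 penis libraries came from males at postnatal day 6, with the prepuce removed. The methods give the total of embryos dissected for limbs, but not how many entered each library or whether both libraries hold the same embryos. The limb p-values below therefore rest on how class differences vary between these 2 libraries, which may be technical or lie between the limbs. The variance of each gene was also moderated toward that of all genes, which carried more degrees of freedom than the gene's own 2. The libraries summed to between 70554067 and 162335993 UMIs. The median member held 6378.5 UMIs in the forelimb and 7487 in the hindlimb, against 4386.5 and 5364 in reference chondrocytes. The limb libraries shared 203 barcodes, and 0 barcodes belonged to members in both. The forelimb gene *Tbx5* stood at 58.7 CPM in forelimb members and 2.90 in hindlimb members, and the hindlimb gene *Pitx1* stood at 0 and 69.6.

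Long bones grow from cartilage in which round and then columnar chondrocytes divide, stop dividing as prehypertrophic cells, and swell into hypertrophic cells whose matrix mineralizes before bone replaces it. Prehypertrophic cells secrete Indian hedgehog (*Ihh*), which keeps parathyroid hormone-related protein (*Pthlh*) on at the ends of the bone. That protein acts through its receptor *Pth1r*, which is strongest in prehypertrophic cells, and holds back the next step. Hypertrophic cells make type X collagen (*Col10a1*), and the last of them make *Spp1*, *Ibsp* and the collagenase *Mmp13*, genes shared with osteoblasts. Runx2, Mef2c and Sp7 are transcription factors of this programme.

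Promoter sequence is shown for *Col10a1*, the collagen gene of the label, and for *Spp1* and *Mmp13*, because their UMIs fell in the same few members (below). Each line gives the 250 bases before the RefSeq start in GRCm38.p6, plus strand, 5′ to 3′, with TGTGGT or its reverse complement ACCACA, a core motif of the Runx family, in capitals. The *Col10a1* bases lie at chr10:34389731-34389980, those of *Spp1* at chr5:104434861-104435110 and those of *Mmp13* at chr9:7272264-7272513.
Col10a1: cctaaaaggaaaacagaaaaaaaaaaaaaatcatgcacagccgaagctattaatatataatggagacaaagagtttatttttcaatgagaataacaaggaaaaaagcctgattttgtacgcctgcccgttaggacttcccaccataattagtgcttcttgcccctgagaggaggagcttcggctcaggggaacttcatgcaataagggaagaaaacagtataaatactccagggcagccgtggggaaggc
Spp1: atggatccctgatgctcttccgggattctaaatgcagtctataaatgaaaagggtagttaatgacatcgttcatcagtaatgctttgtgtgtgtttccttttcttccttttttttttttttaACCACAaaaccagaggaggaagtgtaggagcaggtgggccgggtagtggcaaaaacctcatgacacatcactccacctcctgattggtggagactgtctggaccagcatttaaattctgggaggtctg
Mmp13: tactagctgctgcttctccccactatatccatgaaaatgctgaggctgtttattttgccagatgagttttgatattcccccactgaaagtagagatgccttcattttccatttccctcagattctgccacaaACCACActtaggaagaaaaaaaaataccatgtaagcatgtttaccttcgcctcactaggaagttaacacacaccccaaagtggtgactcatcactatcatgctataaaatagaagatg
Over the window from 250 bases before to 50 bases after the start, the motif occurred 0 times at *Col10a1*, 1 time at *Spp1* and 1 time at *Mmp13*. Of 32851 RefSeq promoters of this length, 16.8% hold it on either strand. A second RefSeq start of *Spp1* had 0 matches, as did all starts of *Ihh*, *Ibsp*, *Pth1r*, *Slc13a5*, *Alpl*, *Mef2c*, *Hhip* and *Ptch1*. *Runx2* had 3 matches, and *Ucma*, which was lower in members, had 1. These matches are a description of the letters only.

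The members were not all of 1 kind. *Ihh* alone was detected in 190 members (73 forelimb, 117 hindlimb), both genes in 72 (37 and 35), and *Col10a1* alone in 209 (112 and 97). Of the last class, 188 cells held exactly 1 *Col10a1* UMI, 12 held 2 to 9, and 9 held 10 or more. The 188 cells stand just inside the gate, and just outside it stood 495 limb cells with *Ihh* or *Col10a1* but no *Col2a1* UMI. The label could be checked against the cartilage profile, meaning the *Col2a1* and matrix conditions of the reference gate and its condition of no *Gdf5* UMI, a gene of forming joints. It was met by 64 of 72 members with both genes (88.9%), by 147 of 190 *Ihh*-only members (77.4%), and by 38 of the 188 with 1 *Col10a1* UMI (20.2%). The members' own gate genes followed these classes. *Ihh* (chr1:74945315-74951672 in GRCm38) stood at 216 and 165 CPM in *Ihh*-only cells of forelimb and hindlimb, and at 562 and 463 in cells with both genes. *Col10a1* (chr10:34389981-34397085) stood at 6376 and 3060 in cells with both, and at 6331 and 7551 in the 9 cells with 10 or more UMIs and no *Ihh*. *Col2a1* (chr15:97975602-98004695) stood at 7488 and 6032 in members, 13290 and 9811 in members with the profile, and 7126 and 6701 in reference cells.

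In all, 260 members (121 forelimb, 139 hindlimb) had the profile and 211 did not.

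The share of cells with a *Col10a1* UMI was set beside cell types that should lack it. In the forelimb it was 4.42% of the 1449 cells with the cartilage profile (median 4535 UMIs), 1.68% of the other 5062 *Col2a1*-positive cells (median 5485.5) and 2.34% of 1665 immune-marker cells (median 7136). In the hindlimb it was 2.97% of 1649 (median 5508), 1.43% of 5809 (median 6097) and 1.42% of 1548 (median 8017). Exactly 1 *Col10a1* UMI was held by 1.79% and 1.39% of forelimb and hindlimb cells with the profile, 1.56% and 1.24% of the other *Col2a1*-positive cells, and 2.28% and 1.29% of immune-marker cells. A lone *Col10a1* UMI is thus about as frequent in cells that should lack the gene, and is not read as expression here, with the profile or without it. *Ihh* was sparser in such cells. Its share was 6.35% and 7.22% with the profile in forelimb and hindlimb, 0.356% and 0.568% in the other *Col2a1*-positive cells, and 0.480% and 0.452% in immune-marker cells. The main comparisons below are therefore given for all 471 members and, where stated, for the 260 with the cartilage profile. Of those 260, 123 held 2 or more UMIs of *Ihh* and *Col10a1*, as did 23 of the 211 without the profile, so the profile describes cartilage and not hypertrophy, and the label rests on a lone UMI in the rest.

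**Figure D1:**
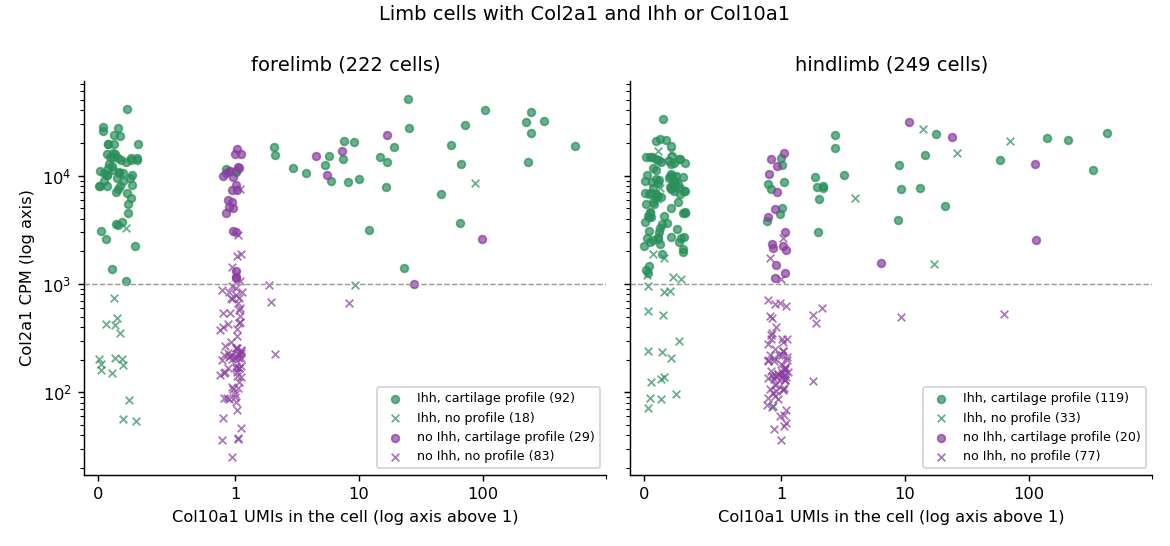
Each point is 1 of the 471 members, plotted by its Col10a1 UMIs (x axis, log above 1) and its Col2a1 CPM (y axis, log), with the 1000 CPM limit dashed. Circles have the cartilage profile (260) and crosses do not (211), and most crosses sit at 1 Col10a1 UMI with no Ihh.

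Summed levels of immune and muscle markers were higher over all members than in reference chondrocytes, and were lower in members with the profile than in either. The summed level of the 10 immune markers was 597 and 275 CPM in forelimb and hindlimb members, 149 and 65.6 in reference chondrocytes, and 29.4 and 21.9 in members with the profile. *C1qa*, a complement gene of macrophages, fell from 80.2 and 30.2 over all members to 0.978 and 0.756 with the profile. The 10 muscle markers summed to 199 and 239 in members, 136 and 72.5 in reference cells, and 69.5 and 65.0 with the profile. In 192 of the 471 members, at least 2 markers of 1 other cell type were detected, as in 95 of the 260 with the profile, 39 of the 72 with both gate genes and 490 of the 2838 reference cells. Among members with the profile the glial list was met most often, with 2 or more markers in 33 and 27 members with the profile, 17 and 14 cells with both genes, and 53 and 97 reference cells, and that list holds *Cdh19*, itself higher in members (below). Whether these cells are doublets was not tested.

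**Figure D2:**
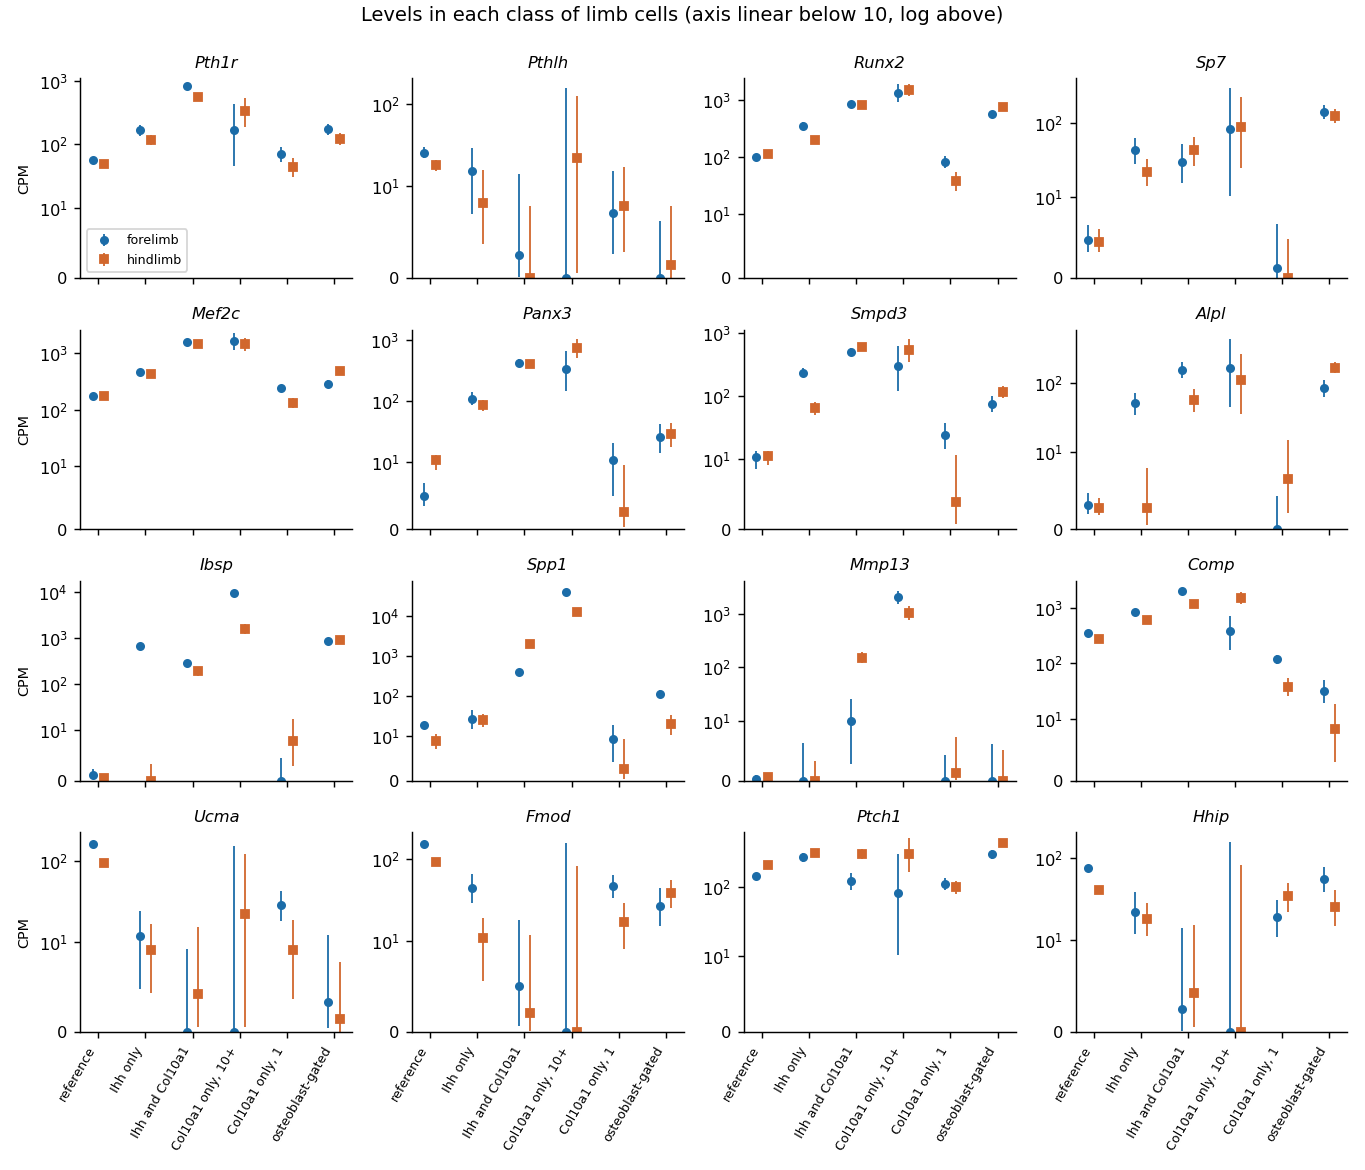
Level (CPM, axis linear below 10 and log above) of 16 genes in 6 classes of limb cells, forelimb (circles) and hindlimb (squares), with 95% Poisson intervals that cover counting error only. Pth1r, Runx2, Mef2c, Panx3 and Smpd3 stand highest or nearly so in cells with Ihh and Col10a1 or with 10 or more Col10a1 UMIs, and stand lower in cells with 1 Col10a1 UMI alone.

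*Pth1r* (chr9:110722085-110747145 in GRCm38), the third marker of the label and no part of the gate, was higher in members. It stood at 267 and 185 CPM in forelimb and hindlimb members against 57.5 and 49.8 in reference chondrocytes, so that both member values lay above both reference values. The log2 fold-change was 2.06 (SE 0.11, n = 2 libraries, adjusted p = 3.22e-06, edgeR) over all members and 2.70 (SE 0.13) with the profile. A *Pth1r* UMI was found in 50.5% and 50.2% of members and in 21.5% and 23.1% of reference cells. Thinned to 2000 UMIs per cell, which leaves out 14 and 7 members and 193 and 127 reference cells that were shallower, the shares were 27.6% and 22.9% against 9.85% and 8.81%.

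Within the members *Pth1r* differed between the classes. Its level was 167 and 119 CPM in *Ihh*-only cells, 837 and 561 in cells with both genes, and 69.9 and 44.5 in cells with 1 *Col10a1* UMI alone. The last values are close to those of reference chondrocytes. In the 9 cells with 10 or more *Col10a1* UMIs and no *Ihh*, *Pth1r* ran from 124 to 531 CPM per cell. It thus did not rise with *Col10a1* alone to the level of cells with both genes. Between cells with both genes and *Ihh*-only cells the log2 fold-change was 2.37 (adjusted p = 0.000212), and 2.35 with the profile. *Pthlh* (chr6:147252101-147264183), the ligand, went the other way, at 8.39 and 7.04 CPM in members against 25.6 and 18.1 in reference cells. The log2 fold-change was -1.47 (SE 0.27, adjusted p = 0.00771). With the profile it was -1.40 (adjusted p = 0.0229), which misses the limit of 0.01. Over 10 alternatives its adjusted p ran from 4.41e-06 to 0.272. Of 18 tested genes of the PTHrP pathway list, *Pth1r* and *Pthlh* were the 2 called.

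A gene was called at an adjusted p under 0.01 with a log2 fold-change past 1 in either direction. Over all 12323 genes tested, members were higher for 202 (1.64%) and lower for 31 (0.252%). With the cartilage profile the numbers were 189 (1.81%) and 62 (0.594%) of 10445, of which 99 higher and 15 lower genes were also called over all members. The shares called in each list below are to be read against these. At an unadjusted p under 0.05, 1455 genes were higher and 990 lower over all members, and 1131 and 933 with the profile.

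No gene of the hedgehog list was called as higher, and 2 were called as lower. *Ptch1*, the Ihh receptor and itself a target of the signal, stood at 165 and 245 CPM in members against 146 and 213 in reference cells (log2 fold-change 0.20, adjusted p = 0.260). With the profile the log2 fold-change of *Ptch1* was 0.76 (adjusted p = 0.000675), under the limit of 1. *Gli1*, another target, was not called (log2 fold-change -0.08, adjusted p = 0.874). Among 17 tested hedgehog genes 0 were higher and 2 were lower, over all members as with the profile, and 2 had an unadjusted p under 0.05 in the higher direction and 6 in the lower. The lower genes were *Hhip*, a target of the signal whose product binds Ihh and inhibits it, and the co-receptor *Boc*. *Hhip* stood at 15.7 and 19.9 in members against 75.6 and 40.3 in reference cells (log2 fold-change -1.59, SE 0.24, adjusted p = 0.00276, and -2.19 with the profile). *Boc* fell by 1.26 on the log2 scale (SE 0.12, adjusted p = 0.000117), and had a log2 fold-change of -1.28 with the profile.

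Some transcription factors of hypertrophy were higher in members. Of 18 tested genes on the list of regulators, 6 were higher and 0 lower (33.3%), among them *Sp7*, *Mef2c*, *Runx2*, *Dlx5* and *Runx3*, with a list median of 0.70 against 0.00 over all genes. *Dlx5* lost its call without doublet markers (adjusted p = 0.0277) and thinned (0.0669). *Runx2* (chr17:44495987-44814797) stood at 350 and 289 CPM in members against 98.7 and 113 in reference cells (log2 fold-change 1.61, SE 0.14, and 2.20 with the profile). *Mef2c* (chr13:83504034-83667080) stood at 603 and 540 against 176 and 172 (1.73, and 2.35 with the profile). *Sp7* (chr15:102356606-102367182), an osteoblast factor also used late in hypertrophy, was sparse at 22.5 and 19.9 against 4.66 and 4.44 (2.22, and 2.80 with the profile), and far below the 142 and 125 of the osteoblast-gated cells, which were selected on it. With the profile, *Dlx3* (log2 fold-change 2.64) and *Foxa3* (1.35), a forkhead factor of hypertrophic cartilage, were also higher, and *Zfp521*, a partner that restrains Runx2, was lower at -1.01. *Runx2* rose further from *Ihh*-only cells, at 357 and 202, to cells with both genes, at 852 and 803 (log2 fold-change 1.70, and 1.84 with the profile). *Mef2c* did so too, from 460 and 416 to 1532 and 1444 (1.85, and 1.88). *Runx3* had a log2 fold-change of -0.67 between these classes, which did not pass (adjusted p = 0.36).

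**Figure D3:**
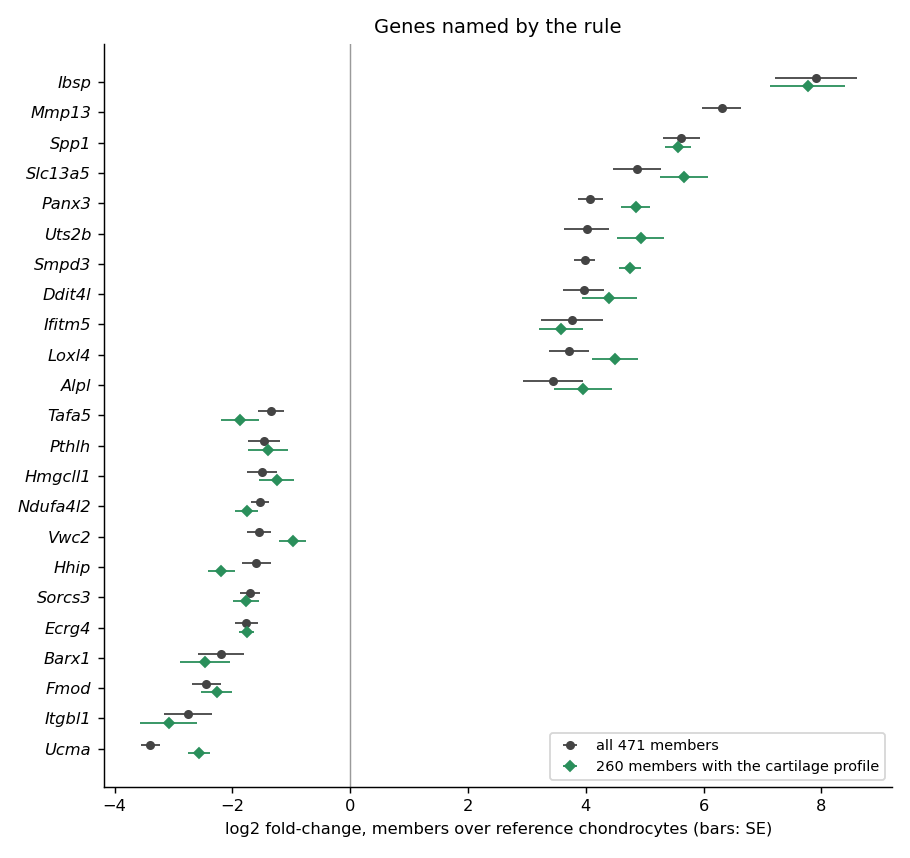
Log2 fold-change of members over reference chondrocytes (x axis, bars are SE) for genes named by the rule, over all 471 members (circles) and over the 260 with the cartilage profile (diamonds). Each gene tested in both keeps its direction, and Mmp13 has no diamond because it was not tested there.

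The largest differences lay in genes of mineralizing matrix. Of 22 tested genes of hypertrophic matrix and mineral, 8 were higher and 0 lower, and with the profile 7 of 21. *Panx3* (chr9:37659902-37669235), a channel protein of hypertrophic cells, stood at 137 and 132 CPM in members against 4.94 and 10.7 in reference cells (log2 fold-change 4.08, SE 0.21, adjusted p = 2.4e-06, and 4.84 with the profile). *Smpd3* (chr8:106252548-106337988), a sphingomyelinase needed for mineralization, stood at 192 and 156 against 10.9 and 11.1 (3.98, SE 0.18, and 4.75 with the profile). *Slc13a5* (chr11:72241989-72267222), a citrate transporter, stood at 45.6 and 26.9 against 0.706 and 1.55 (4.87, SE 0.41, and 5.66). *Panx3* was detected in 51 and 60 members, *Smpd3* in 52 and 43, and *Slc13a5* in 18 and 14, with at most 35.4% of the UMIs of each in 1 cell. *Alpl*, the phosphatase of mineralization, was at 50.8 and 16.6 against 3.11 and 2.79 (3.44, SE 0.51, and 3.96). Also higher were *Cd200* (2.44) and the transglutaminase *Tgm2* (1.75, not called by DESeq2).

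*Ibsp*, *Spp1* and *Mmp13* headed the ranking, and few cells carried them. *Spp1* (chr5:104435118-104441050), osteopontin, stood at 629 and 645 CPM in members and 18.9 and 8.98 in reference cells (log2 fold-change 5.62, SE 0.31, adjusted p = 3.22e-06). It was detected in 22 and 15 members, and the top cell held 44.9% of its UMIs in the forelimb and 59.9% in the hindlimb. *Ibsp* (chr5:104299171-104311469), bone sialoprotein, stood at 390 and 68.8 against 1.13 and 0.516 (7.90, SE 0.69, adjusted p = 7.03e-05). It was detected in 18 and 16 members, and 1 *Ihh*-only forelimb cell without the profile held 49.3% of the forelimb UMIs. *Mmp13* (chr9:7272514-7283331) stood at 27.3 and 49.3 against 0.282 and 0.619 (6.31, SE 0.33, adjusted p = 5.89e-06), with all its UMIs in 5 and 6 members. The *Ibsp* and *Spp1* differences held with the profile, at 7.77 and 5.56, and there too few cells carried them. With the profile, 1 forelimb cell held 228 *Ibsp* and 539 *Spp1* UMIs, and 1 hindlimb cell held 289 *Spp1* UMIs. That forelimb cell met the profile narrowly, with *Col2a1* at 1008 CPM, and also held 2 or more markers of 1 other cell type.

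Also named by the rule on the higher side were *Uts2b*, *Ddit4l*, *Ifitm5* and *Loxl4*, with log2 fold-changes from 3.71 to 4.02. *Loxl4*, a collagen cross-linking enzyme, was at 72.4 and 17.4 CPM in members with the profile and 2.40 and 1.34 in reference cells. *Ifitm5*, an osteoblast membrane protein, was at 19.6 and 14.4 with the profile and 1.13 and 1.65 in reference cells. With the profile, *Serinc5* and *Aldh1a3*, a retinoic acid-synthesizing enzyme, entered the ranking at 3.80 and 3.79.

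Called growth cartilage genes went both ways. Over all members 3 of 30 were higher (*Pcolce2*, *Snorc* and *Comp*) and 3 lower (*Ucma*, *Fmod* and *Cytl1*), and with the profile 5 of 29 were higher and 3 lower. The reference gate asks for more *Col2a1* and for a matrix UMI, so the values over all members are given as a description. There the list median was -0.18, with 5 genes higher and 14 lower at an unadjusted p under 0.05. With the profile, where both sides meet the same cartilage conditions, the median was 0.58, with 18 higher and 4 lower. *Snorc*, a chondrocyte proteoglycan, stood at 2191 and 1323 CPM with the profile against 468 and 474 in reference cells (log2 fold-change 1.08 over all members, 1.93 with the profile). *Comp*, cartilage oligomeric matrix protein, stood at 1330 and 805 with the profile against 353 and 271 (1.05, and 1.81 with the profile). *Pcolce2*, an enhancer of procollagen processing, stood at 524 and 405 with the profile against 105 and 113 (1.37, and 2.15 with the profile). *Hapln1*, the link protein of aggrecan, passed the fold limit with the profile (1.67) and not over all members (0.83), and *Sox9* did not pass in either fit (-0.17, and 0.58 with the profile).

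*Ucma*, a secreted matrix protein of immature and resting cartilage, had the lowest fold-change of the named genes over all members, and the second lowest after *Itgbl1* (-3.09) with the profile. It stood at 163 and 95.2 CPM in reference cells and 29.4 and 12.8 in members with the profile, and in cells with both *Ihh* and *Col10a1* only 2 of 72 held a UMI. Its log2 fold-change was -3.40 (SE 0.16, adjusted p = 1.35e-06), and -2.57 with the profile. *Fmod*, a small proteoglycan that also marks tendon, stood at 151 and 90.5 in reference cells and 36.2 and 12.8 with the profile (-2.45, and -2.27). *Itgbl1* (-2.75), *Barx1* (-2.20), a homeobox gene of joint-forming regions, *Ecrg4* (-1.76), *Sorcs3* (-1.70), *Vwc2* (-1.56), *Ndufa4l2* (-1.53), *Hmgcll1* (-1.50) and *Tafa5* (-1.35) completed the ranking with *Hhip* and *Pthlh*. With the profile *Vwc2* (-0.98) and *Hmgcll1* (-1.25, adjusted p = 0.0196) were not called. *Cytl1* was called over all members (-1.27), but not with the profile (-0.46) or in 4 other alternatives of 10, where it ran from -0.99 to -0.74.

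Of the BMP and WNT lists, 5 of 26 and 4 of 21 tested genes were higher with the profile, and 1 and 0 lower. *Bmp6*, a ligand of hypertrophic cartilage, stood at 387 and 113 CPM with the profile against 68.4 and 45.3 in reference cells (log2 fold-change 1.50 over all members, where DESeq2 did not call it, adjusted p = 0.914, and 2.04 with the profile). The BMP antagonist *Nog* stood at 93.9 and 103 against 39.1 and 37.8 (0.72 and not called over all members, 1.43 with the profile). *Grem1*, another antagonist, was lower. Over all members 1 of 27 BMP genes was higher and 1 lower. Of the WNT genes, *Wnt5b* (1.63, and 2.02 with the profile) and *Wnt4* (1.24, and 1.71) were higher in both fits, *Notum* (1.56) and the antagonist *Frzb* (1.40) only in the fit with the profile, and *Sfrp1* was lower over all members alone (-1.08). *Fgfr3*, the receptor that slows chondrocyte division, stood at 244 and 246 with the profile against 82.5 and 102 (0.65 over all members, 1.48 with the profile, where it was the 1 called of 19 FGF genes).

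None of 4 lists of general cell state held a called gene. In cell division 0 of 30 genes passed edgeR's test, and 0 were higher and 7 lower at an unadjusted p under 0.05, with a list median of -0.20. With the profile 0 of 30 lay above a log2 fold-change of 0 and 14 were lower at an unadjusted p under 0.05. *Mki67*, a proliferation marker, stood at 84.9 and 144 CPM in members against 116 and 159 in reference cells. Among 14 genes of cell cycle exit 0 were called, with 5 higher and 1 lower at an unadjusted p under 0.05. *Cdkn1c*, the inhibitor most tied to chondrocyte exit, stood at 4220 and 3880 with the profile against 2806 and 2854, a log2 fold-change of 0.59 that did not pass. For hypoxia and glycolysis 0 of 22 were called (1 higher and 6 lower unadjusted), and for the secretory pathway 0 of 25 (3 and 3). With the profile these became 0 of 20 (7 higher and 1 lower unadjusted) and 0 of 25 (7 and 3), and cell cycle exit 0 of 14 (5 and 2). Over all members DESeq2 called 0 genes on each of these 4 lists. *Vegfa*, the vessel growth factor of late hypertrophic cells, stood at 44.0 and 41.6 with the profile and 51.1 and 62.3 in reference cells.

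Osteoblast genes were higher in members than in reference chondrocytes for 7 of 14 tested, among them *Ibsp*, *Spp1*, *Ifitm5*, *Alpl*, *Sp7* and *Runx2*, most of which are also on the hypertrophic lists. *Col1a1*, the main collagen of bone, was not among them. It stood at 711 and 564 CPM with the profile against 1736 and 1241 in reference cells, and passed as lower (-1.15), while over all members the log2 fold-change was 0.10 (adjusted p = 0.858). Of the glial list 2 genes were called as higher in both fits, 1 of them *Cdh19*, and 0 by DESeq2 over all members. *Cdh19*, a cadherin, stood at 47.0 and 32.5 with the profile and 1.84 and 4.13 in reference cells (2.80, and 3.71 with the profile), while *Sox10*, a defining glial factor, stood at 8.81 and 7.56 against 2.54 and 5.47. Of the other marker lists over all members, 8 of 10 immune genes, 2 of 7 muscle genes and 1 of 13 perichondrium genes were higher, against 0 of 3, 0 of 4 and 0 of 13 with the profile. DESeq2 called 6, 0 and 1 of them over all members. With the profile 3 perichondrium genes (*Col14a1*, *Col1a1* and *Postn*) were lower. *Fmod* on the tendon list was lower in both fits, and on the joint list *Pthlh* was lower over all members and *Sfrp2* with the profile. On the endothelial, red blood, osteoclast and epidermis lists 0 genes were called by edgeR in either fit and 0 by DESeq2 over all members, with 5, 2, 1 and 2 genes higher and 0, 1, 0 and 0 lower at an unadjusted p under 0.05.

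The contrast with bone-forming cells used 131 limb osteoblast-gated cells, which held *Runx2* and *Sp7* with little *Col2a1* and no *Ihh* or *Col10a1*. Members were higher for 301 of 12326 genes (2.44%) and lower for 189 (1.53%). Markers of other cells moved with this contrast, since 8 of 10 immune genes, 3 of 9 red blood genes, 2 of 7 glial genes and 1 of 7 muscle genes were higher in members, and the immune markers summed to 597 and 275 CPM in members against 73.7 and 16.9 in osteoblast-gated cells. Their part in the result was not tested. Both gates read *Col2a1*, in opposite directions, so the growth cartilage genes are given as a description. Of these 25 of 30 were higher and 0 lower, among them *Snorc* (log2 fold-change 9.41, and 10.25 with the profile), *Comp* (5.16, and 5.93) and *Sox9* (2.52, and 3.26). The osteoblast-gated cells were selected on *Runx2* and *Sp7*, so the osteoblast genes are also given as a description. Members were lower for 6 of 12 tested osteoblast genes, including *Ibsp* (-2.22, and -2.34 with the profile) and *Col1a1* (-1.59, and -2.83). The *Ibsp* call was lost with DESeq2 (adjusted p = 0.0966) and without cells of 1 *Col10a1* UMI alone (-1.52, adjusted p = 0.0378). *Dlx5*, which had been higher than in reference chondrocytes, was lower (-1.57), but was not called with the profile (-0.97, adjusted p = 0.0132) or thinned (adjusted p = 0.0352). *Ibsp* stood at 881 and 912 CPM in the osteoblast-gated cells, although 1 hindlimb cell held 98.9% of that library's value. *Spp1* went the other way, at 114 and 19.7 in osteoblast-gated cells (members higher by 3.50, SE 0.35, and by 3.57 with the profile). *Panx3* (2.44, and 3.20) and *Tgm2* (2.78, and 3.45) were also higher in members, the latter not by DESeq2 (adjusted p = 0.0117). *Mmp13* had 0 UMIs in the osteoblast-gated cells and 171 in members, of which 1 hindlimb cell held 71. The member level was 17.3-fold that of a floor of 3 counts over the osteoblast-gated cells. That floor counts UMIs and is no bound over cells, since few members carried the gene. Of the hypoxia and glycolysis list 5 of 22 were higher in members than in osteoblast-gated cells (*Bnip3*, *Slc2a1*, *Pfkl*, *Pgk1* and *Eno1*). Without doublet markers *Bnip3* (adjusted p = 0.0306) and *Pfkl* (0.0193) lost the call, and thinned *Bnip3* (0.0865), *Slc2a1* (0.0337) and *Eno1* (0.183) did.

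Cells with both gate genes were set against *Ihh*-only cells, a comparison added after the data were seen. Of 9133 genes, 59 were higher (0.646%) and 2 lower (0.0219%), and with the profile 30 (0.459%) and 1 (0.0153%) of 6529. *Slc13a5* was higher in cells with both genes, at 185 and 134 CPM against 17.0 and 0 (log2 fold-change 4.71, SE 0.57, adjusted p = 0.00208). *Ddit4l* (5.24), *Aldh1a3* (5.63), *Gcnt2* (3.40), *Grb14* (3.26), *Bmp8a* (4.08, not called with the profile, adjusted p = 0.0361), *Hpgd* (3.21), a prostaglandin-degrading enzyme, and the homeobox gene *Irx5* (3.17) were higher as well. *Irx5* stood at 162 and 99.8 in cells with both against 22.1 and 10.0. *Frzb* was at 165 and 78.6 against 22.1 and 6.36 (3.27), and *Wnt5b* (2.63), *Panx3* (2.20) and *Cd200* (3.00) were also called. Without cells of doublet markers the calls of *Slc13a5* (adjusted p = 0.0364), *Panx3* (0.0143), *Cd200* (0.0127) and *Runx2* (0.0187) were lost. *Alpl* and *Ibsp* passed with the profile (4.40 and 6.65) and not over all members, where the forelimb cell named above held 91.1% of the *Ihh*-only *Ibsp* UMIs. At an unadjusted p under 0.05, 692 of the 9133 genes were higher and 580 lower. Of 29 tested cell division genes 16 were lower and 0 higher at an unadjusted p under 0.05, and 1, *Cenpf*, was called (-1.84, SE 0.27, adjusted p = 0.00651). That call was lost with the profile (adjusted p = 0.0559), with DESeq2 (0.0126), without doublet markers (0.194) and thinned (-0.92, adjusted p = 0.564). *Cenpf* stood at 27.5 and 38.2 in cells with both and 93.6 and 156 in *Ihh*-only cells. *Cdkn1c* was at 6056 and 4968 in cells with both, and its log2 fold-change of 0.88 did not pass. The other lower call was the immune gene *Fcer1g* (-5.23, SE 0.75, adjusted p = 0.00538). Of 9 tested immune genes 7 were lower at an unadjusted p under 0.05, as were 5 of 8 red blood and 4 of 6 epidermis genes. The immune markers summed to at most 21.2 CPM in cells with both genes of either limb, against 231 and 310 in *Ihh*-only cells, and with the profile to 22.4 and 21.1 against 37.7 and 22.0. Their part in the division genes was not tested. With the profile 9 of 22 tested division genes were lower and 0 higher at an unadjusted p under 0.05, beside 288 and 430 of all 6529.

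*Col10a1*-only cells against *Ihh*-only cells gave 57 higher (0.624%) and 120 lower (1.31%) of 9133 genes, but 25 of the lower genes were growth cartilage genes out of 28 tested, and only 49 of the 209 *Col10a1*-only cells had the cartilage profile. Restricted to cells with the profile, 3 genes were called, and without the 188 cells of 1 *Col10a1* UMI, 20. Over all cells *Mmp13* and *Spp1* led the higher side. Of the marker lists of other cells, 4 of 13 perichondrium, 2 of 6 tendon (0 by DESeq2) and 1 of 6 joint genes were higher. On the same lists 1 of 3 glial genes was lower (0 by DESeq2), and 0 of 9 immune genes were called. *Mmp13* had 0 UMIs in *Ihh*-only cells and 96 in *Col10a1*-only cells, of which 1 forelimb cell held 46 and 1 hindlimb cell 35. The level was 30.6-fold that of the same floor of 3 counts, which counts UMIs and is no bound over cells.

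*Col10a1* was concentrated in few cells. Of 4718 UMIs in members, 4378 (92.8%) lay in 47 cells with 10 or more (27 forelimb, 20 hindlimb), and 13 cells held 100 or more. *Pth1r* was detected in 44 of the 47, *Runx2* in 44, *Mef2c* in 45, *Panx3* in 41 and *Ihh* in 38, while *Sp7* was detected in 17, *Ibsp* in 23, *Alpl* in 20, *Spp1* in 16 and *Mmp13* in 10. *Ihh* and *Col10a1* thus overlapped in most of the cells with much *Col10a1*. The cell with the most, 559 UMIs in the forelimb, also met the immune-marker rule, and whether it is a doublet was not tested.

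**Figure D4:**
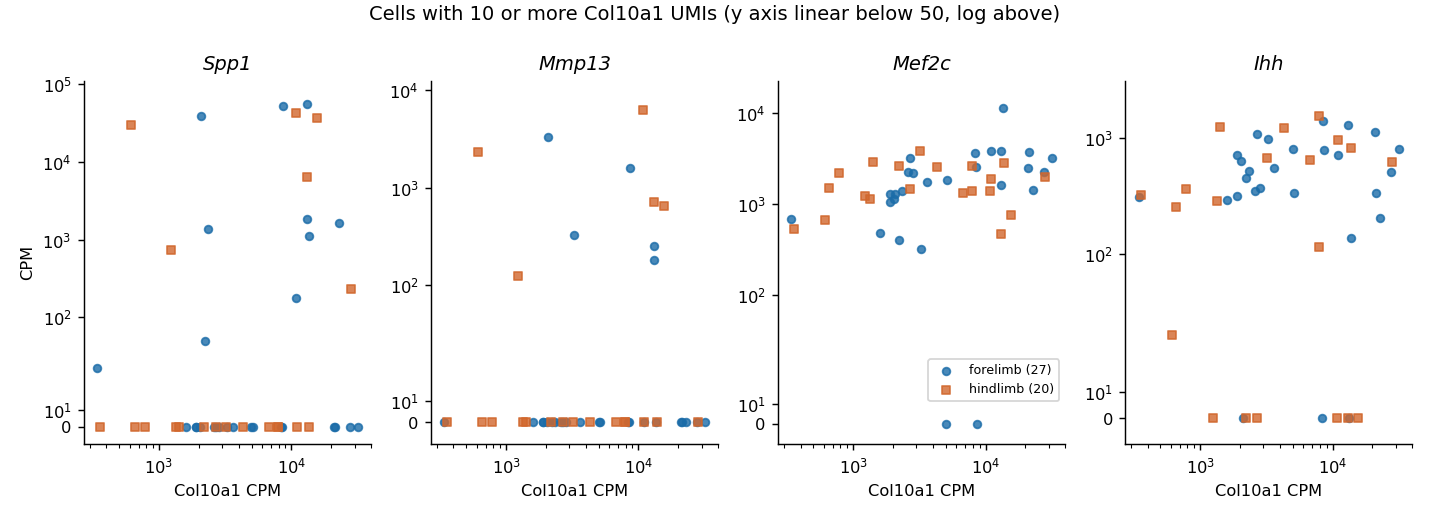
Each point is 1 of the 47 cells with 10 or more Col10a1 UMIs (27 forelimb circles, 20 hindlimb squares), by Col10a1 (x axis, log) and 4 other genes (y axis, linear below 50 and log above), all in CPM. In 7 cells Spp1 stands above 5000, all 7 hold Mmp13, and Mef2c is spread over nearly all 47.

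A small group stood apart within these 47 cells on *Spp1*. In 7 cells (3 forelimb, 4 hindlimb) *Spp1* ran from 6446 to 55328 CPM, and in the other 40 the highest value was 1822. This split was drawn after the values were seen and is given without a test. All 7 held *Mmp13* (median 1569) and *Ibsp* (median 1758), whereas *Mmp13* was detected in 3 of the 40 and *Ibsp* in 16. Some of the 7 lacked the cartilage profile. For each gene given next the 7 cells had the lower median, with ranges that overlap those of the 40. Median *Col2a1* was 2567 against 18508 CPM, median *Acan* 177 against 1950, median *Cdkn1c* 645 against 5553, and median *Pth1r* 144 against 822. *Ihh* was detected in 2 of 7 against 36 of 40. *Runx2* did not follow this order, with medians of 1224 and 922. *Col10a1* itself had medians of 10802 and 3440, with ranges that overlap. *Alpl* was detected in 1 of the 7 and *Sp7* in 3, against 19 and 14 of the 40. *Vegfa* was detected in 5 of the 7 and 14 of the 40. In depth the 7 cells ran from 1275 to 31025 UMIs, so single values in the shallow cells rest on few molecules.

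Forelimb and hindlimb members can only be set side by side, since each limb gave 1 library. *Ihh*-only cells made up 73 of 222 forelimb and 117 of 249 hindlimb members, and cells with both genes 37 and 35. With the profile, *Col10a1* stood at 2587 and 1210 CPM and *Ihh* at 307 and 262. The forelimb was higher for *Bmp6* (387 and 113), *Loxl4* (72.4 and 17.4), *Wnt5b* (150 and 46.8) and *Alpl* (68.5 and 23.4), while *Mef2c* (916 and 762) and *Panx3* (237 and 205) lay closer together.

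The same gate found 164 cells in the penis libraries, 59, 74 and 31 of them, and 62 of these (24, 22 and 16) had the cartilage profile. Reference chondrocytes, with the profile but without *Ihh* or *Col10a1*, numbered 6, 11 and 6 there. The members thus outnumbered the reference cells in each penis library, whereas in the limb the 260 with the profile stood beside 2838. Of the 62, 38 held both gate genes, 7 *Ihh* alone and 17 *Col10a1* alone, against 64, 147 and 49 of the 260 in limb. The part of this mix in the differences below was not tested. The penis libraries are of another age than the limb libraries, and tissue and age cannot be told apart.

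Among cells with the profile, 357 genes were higher in penis (4.39%) and 256 lower (3.15%) of 8139, and among all cells of the gate 343 (3.22%) and 199 (1.87%) of 10654. That total of 542 became 76 without the hindlimb, 149 without the forelimb and 141 without the first penis library. The cells with the profile were deeper in penis, with medians of 26964.5, 18669 and 24817.5 UMIs against 6744 and 7666, and the part of depth in these differences was not tested. Over all cells of the gate, 5 of 7 muscle, 3 of 9 immune and 1 of 9 red blood genes were lower in penis. Higher there were 2 of 5 glial, 1 of 9 epidermis and 1 of 3 osteoclast genes. The part of such markers in the counts was not tested. Of osteoblast genes with the profile, 12 of 14 tested were higher and 0 lower, and over all cells of the gate 7 of 15 and 0. *Ibsp* stood at 5382, 6542 and 4950 CPM in the penis libraries against 334 in forelimb and 58.2 in hindlimb (log2 fold-change 5.08, SE 0.61, adjusted p = 0.000234). *Col1a1* stood at 8962, 9834 and 11688 against 711 and 564 (4.25, SE 0.24). *Alpl* stood at 308, 419 and 234 against 68.5 and 23.4 (3.08, SE 0.43), with no overlap between tissues for any of these 3. *Spp1* stood at 6418, 9022 and 1992 against 1151 and 270.5 (3.27, SE 0.67). *Ibsp* was detected in 21 of 24, 20 of 22 and 13 of 16 penis cells, but in 14 of 121 forelimb and 5 of 139 hindlimb cells.

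The PTHrP receptor and the hypertrophy factors were compared next. *Pth1r* stood at 1180, 822 and 1362 CPM in penis against 399 and 273.5 in limb (1.99, SE 0.29), *Runx2* at 1070, 820 and 1168 against 526 and 401 (1.39, SE 0.25), and *Sp7* at 89.3, 61.8 and 55.1 against 31.3 and 29.5 (1.50, SE 0.31). Over all cells of the gate *Runx2* (1.25, adjusted p = 0.0193) and *Sp7* (1.24, adjusted p = 0.0174) were not called, and edgeR called 0 of 19 hypertrophic regulators there, with 4 higher and 4 lower at an unadjusted p under 0.05 and 1 higher by DESeq2. *Mef2c* did not pass (0.93, adjusted p = 0.0160). *Mmp13* stood at 138, 91.4 and 6.49 against 49.9 and 8.31, with overlapping groups (adjusted p = 0.105). *Ihh*, a gate gene and not tested, stood at 301, 245 and 165 against 307 and 262.

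Of cell division genes, 9 of 25 were lower in the penis cells with the profile and 0 higher, and over all cells of the gate 4 of 28 and 0. *Cdk1* stood at 1.49, 2.69 and 22.7 CPM against 57.7 and 95.2 (-3.18, SE 0.59), and *Mki67* at 2.98, 2.69 and 35.7 against 74.4 and 132 (-2.96, SE 0.61). Over all cells of the gate *Cdk1* was called (-1.30) and *Mki67* was not (-1.21, adjusted p = 0.0462). In the third penis library all *Mki67* UMIs and all *Cdk1* UMIs came from 1 cell.

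The largest differences with the profile were of other kinds. *Pcp4*, a calmodulin regulator, stood at 207, 202 and 308 CPM in penis and 0.978 and 0 in limb (8.87, SE 0.56, adjusted p = 3.36e-06). *Epyc*, a small proteoglycan of growing limb cartilage, had 0 UMIs in the penis cells and stood at 345 and 247 in limb, at least 131-fold higher than the level that 3 counts over the penis cells would give. *Mecom*, a zinc finger transcription factor, likewise had 0 UMIs there and stood at 263 and 256 in limb, at least 117-fold higher by the same floor. *Dach1* stood at 1.49, 0 and 0 against 369 and 499 (-8.66, SE 0.50). *Fmod*, which was lower in limb members than in limb reference cells, stood at 284, 306 and 344 in penis against 36.2 and 12.8 (3.95, SE 0.39). The numbers of cells behind these sums are small, and 1 cell held 40.7% of the *Ibsp* UMIs in the first penis library and 49.0% in the third.

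**Figure D5:**
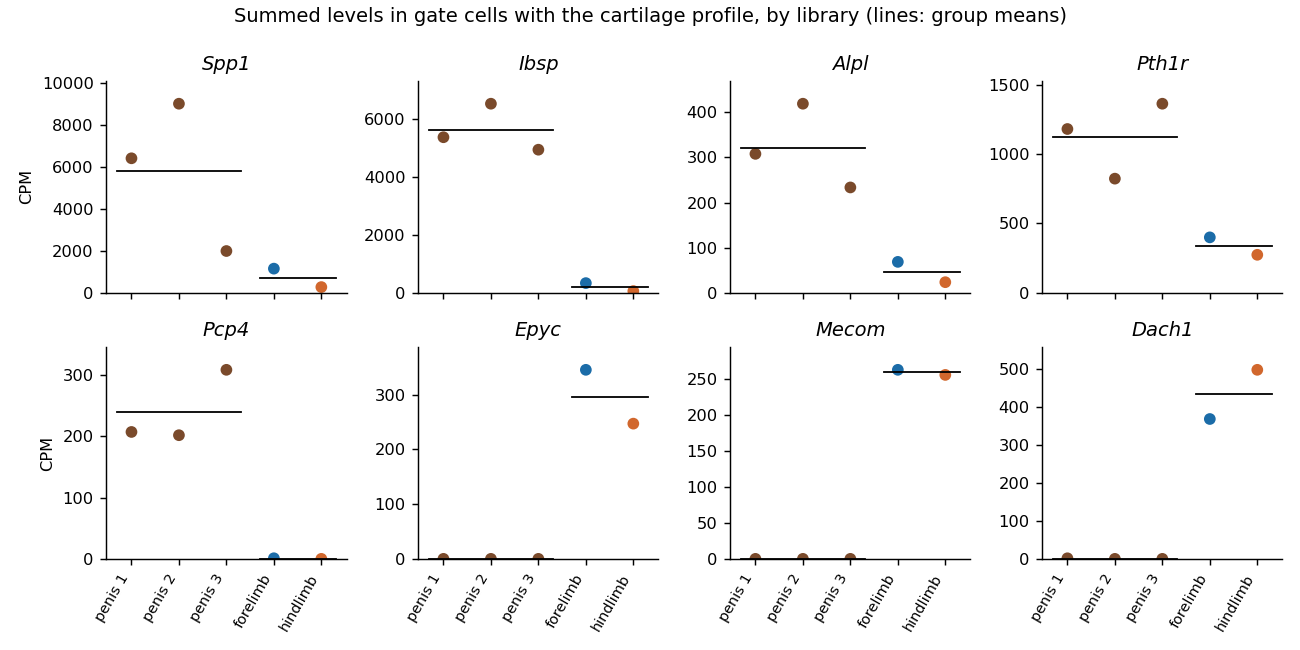
Summed levels (CPM) of 8 genes in cells of the gate with the cartilage profile in the 3 penis libraries and the forelimb and hindlimb libraries, with group means as lines. Spp1, Ibsp, Alpl, Pth1r and Pcp4 are higher in each penis library than in either limb library, and Epyc, Mecom and Dach1 are lower.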

How the data were processed

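The deposited matrices hold unnormalized UMI counts, which the authors made with Cell Ranger 7.0.0 against mm10 (10x Genomics 3′ chemistry, per the study's methods), with none of their later filtering or normalization. Cells with 100 to 9000 genes and at most 10% mitochondrial UMIs were kept, in limb and penis alike. No doublet caller was run. Cells with 2 or more markers of 1 other cell type were left out in an alternative.

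UMI counts were summed per library and class, since cells are not replicates, and compared with edgeR 4.0.16 in R 4.3.3 (TMM, filterByExpr, quasi-likelihood test, p-values adjusted by Benjamini-Hochberg across every tested gene). The limb comparisons had the library as a block and 2 residual degrees of freedom, and the penis comparison had no covariate and 3. The prior degrees of freedom, taken from all genes, were 8.94 in the fit of members, reference and osteoblast-gated cells together. They were 8.61 in the fit of the member classes and 6.81 in the penis fit, each over all members. SE was derived from the log2 fold-change and its F statistic. Alternatives were RLE size factors, DESeq2 1.42.0, no filter on low counts, an adjusted p limit of 0.05 at any fold, other filters on cells and genes per UMI, thinning to 2000 UMIs, other member gates and leaving out libraries. Cell shares carry 95% exact binomial and levels 95% exact Poisson intervals in the tables and plots, for counting error only.

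Genes were named as the 12 largest and 12 smallest called log2 fold-changes of members over reference cells (8 each way in other comparisons) at 20 CPM or more with the same sign in both limbs, plus list members. Genes outside these ranks were chosen after their values were seen. Members and lists were chosen with earlier results of these data known. Coordinates are GENCODE M21 (GRCm38). Some genes that the rule or the lists named are not reported here.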

Additional observations from a re-analysis of the deposited data

How the results depend on the processing

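Counts of called genes moved with the settings. Alternatives for the osteoblast-gated and both-gene comparisons, and those without cells of 1 *Col10a1* UMI alone, were chosen after seeing the data. DESeq2 did not call *Bmp6* (1.54, adjusted p = 0.914), *Itgbl1* (-2.77, adjusted p = 0.825) or *Tgm2* (1.78, adjusted p = 0.0213), nor *Barx1* (0.0527), *Tafa5* (0.110), *Hmgcll1* (0.0629), *Vwc2* (0.0206) and *Sfrp1* (0.0520), and calls of *Slc13a5* (adjusted p = 0.0110) and *Wnt4* (adjusted p = 0.0162) were lost without doublet markers. *Pthlh* lost its call in 5 of 10 alternatives. *Wnt4* kept its call in 8 of 10, with a lowest log2 fold-change of 0.67 and a highest adjusted p of 0.334. For members against reference chondrocytes (233 calls) the count was 131 with DESeq2, 471 with no filter on low counts, 833 at an adjusted p of 0.05 with any fold, 105 without cells of doublet markers, 150 after thinning, 402 with 2 or more UMIs of *Ihh* and *Col10a1*, and 482 without the osteoblast-gated cells in the fit. Over 44 named genes, 380 of 429 alternative values kept the call, 49 lost it and 0 turned. Leaving out either limb kept the direction in 88 of 88 values. The ranked genes were chosen for the same sign in both limbs, and all 44 were called on these same libraries. The 88 values are therefore no support. Leaving out a limb leaves the limb comparisons no residual degrees of freedom, so they are also values without a test.

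Against osteoblast-gated cells (490 calls) the count was 774 with no filter, 1338 at an adjusted p of 0.05, 210 thinned, 990 with the cartilage profile and 795 without cells of 1 *Col10a1* UMI alone. *Col10a1*-only against *Ihh*-only cells (177) gave 514, 461, 109 and 3 under the first 4 of these settings, 100 without doublet markers, and 20 without cells of 1 *Col10a1* UMI alone, where *Ccn3* turned to -4.28 and *Dhx58os* to 0.37. Cells with both genes against *Ihh*-only cells (61) gave 296, 202 and 31 with no filter, at 0.05 and with the profile. The penis comparison (542) gave 1332 with no filter, 1590 at 0.05, 294 without doublet markers and 236 thinned. Leaving out 1 library moved it between 76 and 723, with 76 without the hindlimb, 149 without the forelimb, 141 without the first penis library, 629 without the third and 723 without the second, where a lone limb library was assumed to vary like the penis libraries.

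The 471 members became 146 with 2 or more UMIs, 260 with the profile, 279 without doublet markers and 283 without cells of 1 *Col10a1* UMI alone. Thinned to 2000 UMIs, shares with a UMI fell in every class. *Pth1r* went from 50.5% to 27.6% of forelimb members, 21.5% to 9.85% of forelimb reference cells, 50.2% to 22.9% of hindlimb members and 23.1% to 8.81% of hindlimb reference cells, and *Runx2* from 44.6% to 28.2%, 23.5% to 13.0%, 43.8% to 24.2% and 26.6% to 14.2%. The cause of each move was not tested, except that fewer cells, genes or UMIs enter some settings by construction. The limb comparisons were paired within each library by the block. For penis against limb no pairing was possible, since the libraries come from animals of different ages. At this depth a gene at a few CPM in 260 cells rests on a handful of molecules.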
